A study of Homo sapiens with 35 samples.

Results

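The human OAS family comprises the genes OAS1, OAS2, OAS3 and OASL, chosen here by gene name as 4 of the 59428 gene rows in the deposited count tables. Their transcripts were followed in all 35 RNA-seq libraries of 4 established myeloid cancer cell lines. The libraries carry the labels SKO (a guide RNA against SUV39H1), DKO (guides against SUV39H1 and SUV39H2) and sgControl (a control guide), and both targets encode methyltransferases of lysine 9 on histone H3. Untreated U937 and THP-1 had 3 libraries in each of SKO, DKO and sgControl, as did U937 cells under a treatment called TPA, for which the labels give no dose or time. MOLM-13 had 2 SKO and 2 sgControl libraries, and OCI-AML-3 had 2 DKO and 2 sgControl libraries. U937, MOLM-13 and THP-1 were cultured in RPMI-1640 and OCI-AML-3 in MEM alpha, each with serum. Library names carry a clone number in THP-1 SKO, THP-1 sgControl and untreated U937 DKO and none in the other groups, so those groups may each be repeats of 1 clone. Whether replicates were separate cultures is not stated, and the p-values therefore cover library-to-library spread that may be technical.

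OAS1, OAS2 and OAS3 encode 2'-5'-oligoadenylate synthetases, enzymes that bind double-stranded RNA and then join ATP into short 2'-5'-linked oligoadenylates. These oligoadenylates switch on a latent ribonuclease that cleaves cellular and viral RNA, so the synthetases turn the sensing of double-stranded RNA into a halt of protein synthesis. OASL is a relative without synthetase activity that carries ubiquitin-like domains and strengthens signalling by the RNA sensor encoded by DDX58. All 4 genes are textbook targets of interferon, which acts at response elements in their promoters. The series title asks about an immune response restrained by SUV39H1 and SUV39H2 and linked to transposable elements.

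On hg38, OAS1 (chromosome 12, 112905856 to 112933219), OAS3 (112938051 to 112976460) and OAS2 (112978395 to 113011723) lie one after the other on the forward strand, and OASL (121017763 to 121039242) lies on the reverse strand of the same chromosome. Their merged exons span 13021 bases in OAS1, 18045 in OAS3, 11233 in OAS2 and 6315 in OASL. One antisense row, RP1-71H24.1, overlaps OAS1, OAS2 and OAS3 and had 0 reads in every library. The RefSeq promoter table held 2 of the 4 genes, and the 250 bases before the RefSeq start of OAS1 (GRCh38.p14, chr12:112906712-112906961, forward strand) and of OAS3 (chr12:112938224-112938473, forward strand) are shown because these genes moved together in most comparisons. Capitals mark every match, on either strand, to the interferon response element GAAANNGAAA, to the same element with a 1-base spacer, GAAANGAAA, or to the gamma-activated site motif TTCNNNGAA. In the OAS3 window a match to GAAANGAAA and a match to GAAANNGAAA share bases in the first capital stretch.
OAS1: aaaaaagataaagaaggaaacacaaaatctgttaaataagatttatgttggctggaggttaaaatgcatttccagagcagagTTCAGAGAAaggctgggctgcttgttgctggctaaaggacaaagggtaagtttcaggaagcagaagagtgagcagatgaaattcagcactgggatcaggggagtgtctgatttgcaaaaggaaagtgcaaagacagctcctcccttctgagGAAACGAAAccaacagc
OAS3: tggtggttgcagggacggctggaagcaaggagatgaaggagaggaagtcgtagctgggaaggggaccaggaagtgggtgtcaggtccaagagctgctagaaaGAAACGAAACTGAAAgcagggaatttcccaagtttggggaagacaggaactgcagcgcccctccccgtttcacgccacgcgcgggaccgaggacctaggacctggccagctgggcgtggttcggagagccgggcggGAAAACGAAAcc

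OAS1 held 1 match to TTCNNNGAA, starting 168 bases before the RefSeq start, and 1 match to GAAANGAAA, starting 17 bases before it. OAS3 held 2 matches to GAAANNGAAA, starting 143 and 12 bases before its RefSeq start, and 1 match to GAAANGAAA at 148 bases. Both RefSeq starts lie inside the gene intervals given above. Among 27305 promoters of the same table and window, 3.07% held GAAANNGAAA, 2.76% held GAAANGAAA and 6.78% held TTCNNNGAA. Of 40 other interferon-stimulated genes, 36 had a promoter sequence, and 55.6%, 27.8% and 16.7% of these held the motifs in the same order. A match describes the letters only, and GAAANGAAA was searched after the OAS1 window had been seen.

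Counted reads per library ranged from 31985767 to 61178704. In the libraries labelled as knockouts, SUV39H1 transcript was higher than in sgControl in untreated U937 and THP-1, by 0.32 to 1.44 on the log2 scale, and in U937 SKO under TPA, by 0.55. It was lower in U937 DKO under TPA (-0.71), MOLM-13 SKO (-1.90) and OCI-AML-3 DKO (-3.35). SUV39H2 transcript, whose gene is targeted in DKO only, was lower in DKO in U937 (-0.39 ± 0.06 SE), U937 under TPA (-1.01 ± 0.08), THP-1 (-1.11 ± 0.07) and OCI-AML-3 (-0.33 ± 0.09). It was also lower in SKO in U937 (-0.27 ± 0.06), THP-1 (-0.63 ± 0.07) and MOLM-13 (-1.15 ± 0.08), and did not pass in U937 SKO under TPA (0.05 ± 0.07, adjusted p = 0.606 in the edgeR test). Groups are therefore named by their labels, and every direction below is between labels. Of 12 myeloid marker genes, 10 to 12 per group reached 1 CPM. The summed level of these markers also moved with the labels, to 1500 to 1530 CPM in U937 SKO and 1630 to 1680 in U937 DKO against 738 to 750 in sgControl, to 9800 to 9960 in MOLM-13 SKO against 2120 to 2220, and under TPA to 1890 to 1940 in U937 SKO and 2750 to 2960 in U937 DKO against 1620 to 1640. It was also higher in THP-1 SKO (1680 to 1750) and THP-1 DKO (2120 to 2150) than in THP-1 sgControl (1510 to 1610), and in OCI-AML-3 DKO (2230 to 2250 against 1140 to 1190); in these 3 the OAS genes that passed the test were lower. Of 4 megakaryocyte markers, 1 reached 1 CPM in U937 DKO under TPA, where GP9 was at 0 reads. The megakaryocyte list summed to 24.8 to 25.9 CPM there and 2.46 to 4.92 in U937 SKO under TPA, against 0.675 to 1.43 in sgControl. It was also higher in THP-1 SKO (6.32 to 8.29) and THP-1 DKO (4.69 to 6.67) than in THP-1 sgControl (1.16 to 1.42), where the OAS genes went the other way. Of 6 stromal and epithelial markers, 1 reached 1 CPM in each U937 group, and the list summed to 180 to 193 CPM in SKO and 268 to 284 in DKO against 90.2 to 98.2 in untreated sgControl, with COL1A2, COL3A1 and EPCAM at 0 reads in all 3. This list summed to 347 to 359 CPM in MOLM-13 SKO against 121 to 123 in sgControl (3 markers at 1 CPM, COL3A1 and EPCAM at 0 reads in both) and to 227 to 230 in OCI-AML-3 DKO against 68.6 to 71.6 (1 marker at 1 CPM, COL3A1, EPCAM and KRT18 at 0). In THP-1 it was lower, at 392 to 420 in SKO and 492 to 503 in DKO against 608 to 678 in sgControl, with 1 marker at 1 CPM and none at 0. Of 4 plasmacytoid dendritic cell markers, 1 reached 1 CPM in each untreated U937 and THP-1 group. IL3RA was at 0 reads in every group of every line, so its row does not tell the groups apart. The sum of the 4 markers was higher than in sgControl in U937 and lower in THP-1. It was 27.2 to 30.1 CPM in U937 SKO and 33.2 to 33.8 in U937 DKO, against 18.9 to 19.9 in U937 sgControl. In THP-1 it was 17.3 to 20.2 in SKO and 9.08 to 10.5 in DKO, against 22.8 to 25.4 in sgControl. The part of these lists in the OAS results was not tested. In bulk RNA, a larger share of expressing cells and more transcript per cell cannot be told apart.

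The family spanned a very wide range of levels. Levels below are in CPM, edgeR's counts scaled to a common library total by trimmed mean of M-values (TMM) over the 35 libraries, and sets of genes are compared in RPKM, the same value per kilobase of merged exons. The summed RPKM of the 4 genes was 228.7 ± 11.1 (SD, n = 3) in U937 DKO under TPA, 57.3 ± 0.97 in U937 SKO under TPA and 20.6 ± 0.35 in THP-1 sgControl, the 3 highest groups. It was 0.268 ± 0.019 in MOLM-13 SKO and 0.106 ± 0.003 in MOLM-13 sgControl (n = 2 each), the 2 lowest groups. U937 DKO under TPA stood highest for each of the 4 genes, and no library of another group reached its range for any of them.

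**Figure D1:**
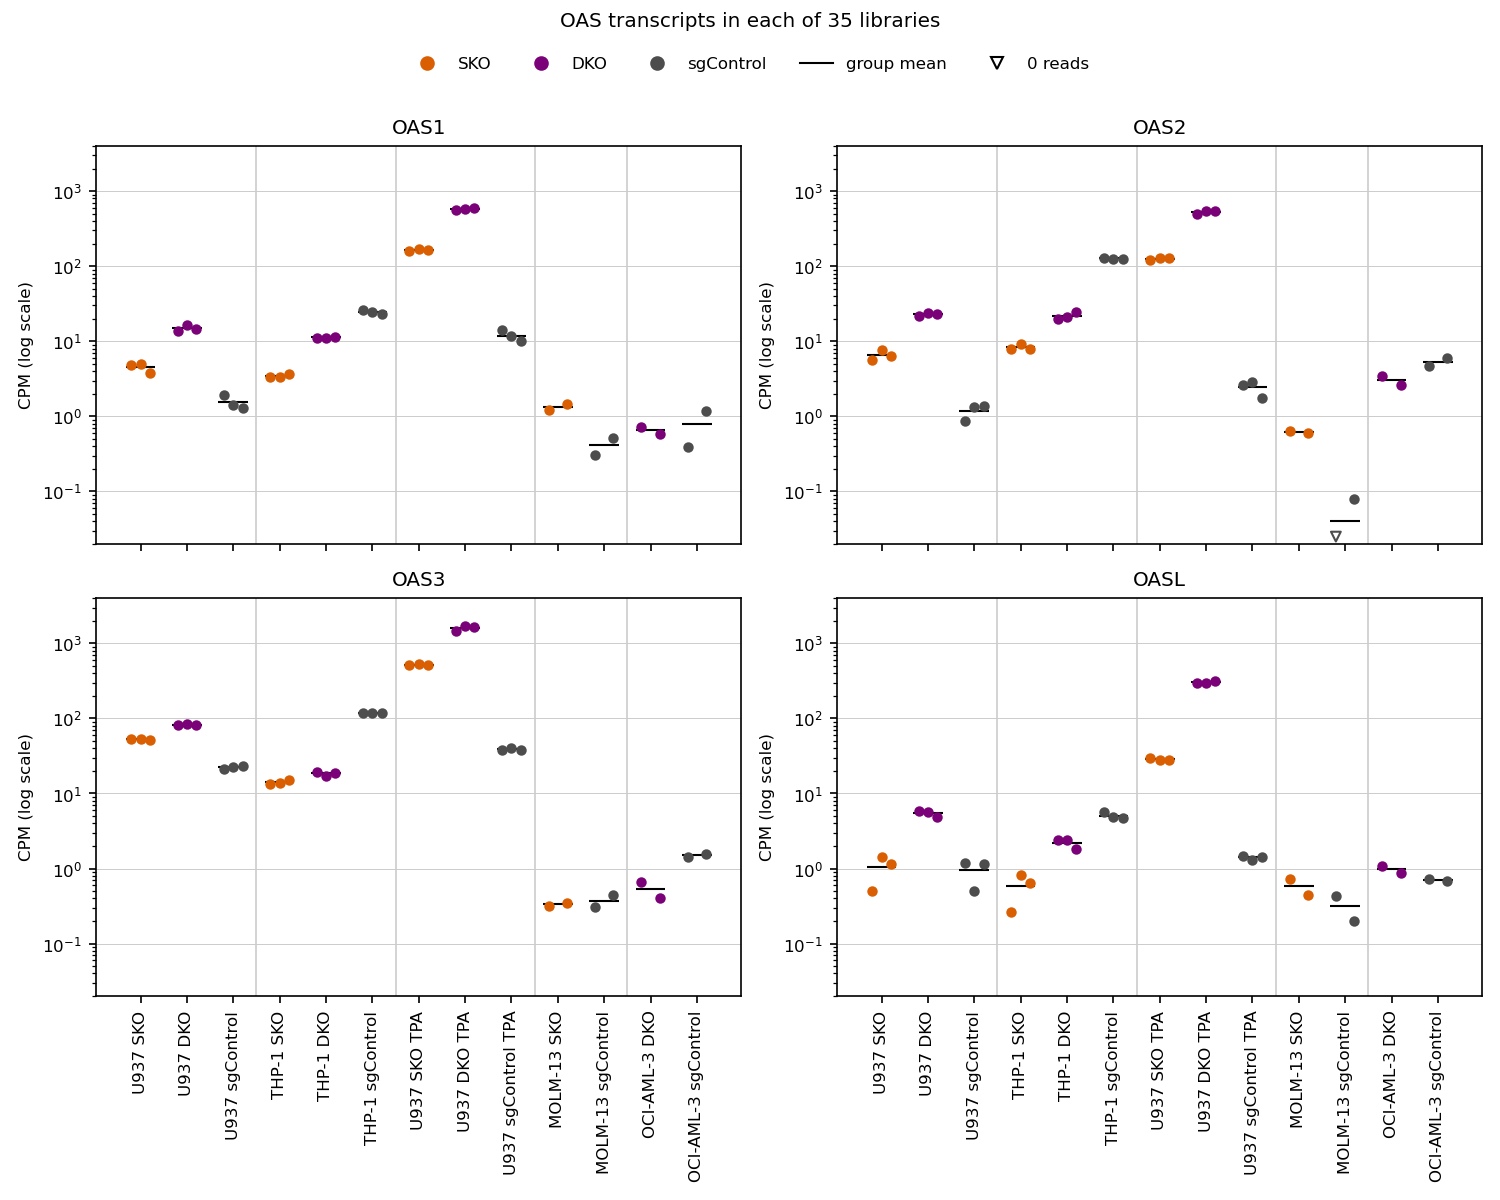
Each point is 1 library and each line a group mean, in CPM on a log scale, for 4 genes across 13 groups, with an open triangle for a library at 0 reads. The 3 U937 DKO libraries under TPA lie above all others in every panel (296.7 CPM or more for OASL and 1473 or more for OAS3).

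By RPKM, which gene led the family depended on the line. Merged exons join all annotated exons of a gene and can be longer than the transcripts present. Shares between genes therefore depend on the length used. Per exon length, OAS3 made up 72.9% ± 2.8 of the family in U937 SKO, 53.0% ± 0.76 in U937 DKO and 77.1% ± 3.1 in U937 sgControl (SD, n = 3). In THP-1 the leading gene was OAS2 in DKO (46.3% ± 3.1) and sgControl (55.1% ± 0.41), while in THP-1 SKO OAS3 (41.6% ± 2.4) and OAS2 (39.4% ± 2.6) had overlapping shares. In OCI-AML-3, OAS2 had 53.5% ± 0.0013 in DKO and 65.2% ± 0.33 in sgControl (n = 2), and OAS3 had only 5.85% ± 0.92 and 11.4% ± 1.0. OASL had its largest share among the U937 groups in DKO under TPA, 20.9% ± 0.86, against 6.39% ± 0.59 in sgControl under TPA, and the libraries of these groups did not overlap. The MOLM-13 shares rest on few reads and varied between libraries, with OASL at 34.2% ± 9.0 in SKO and 46.8% ± 23 in sgControl.

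**Figure D2:**
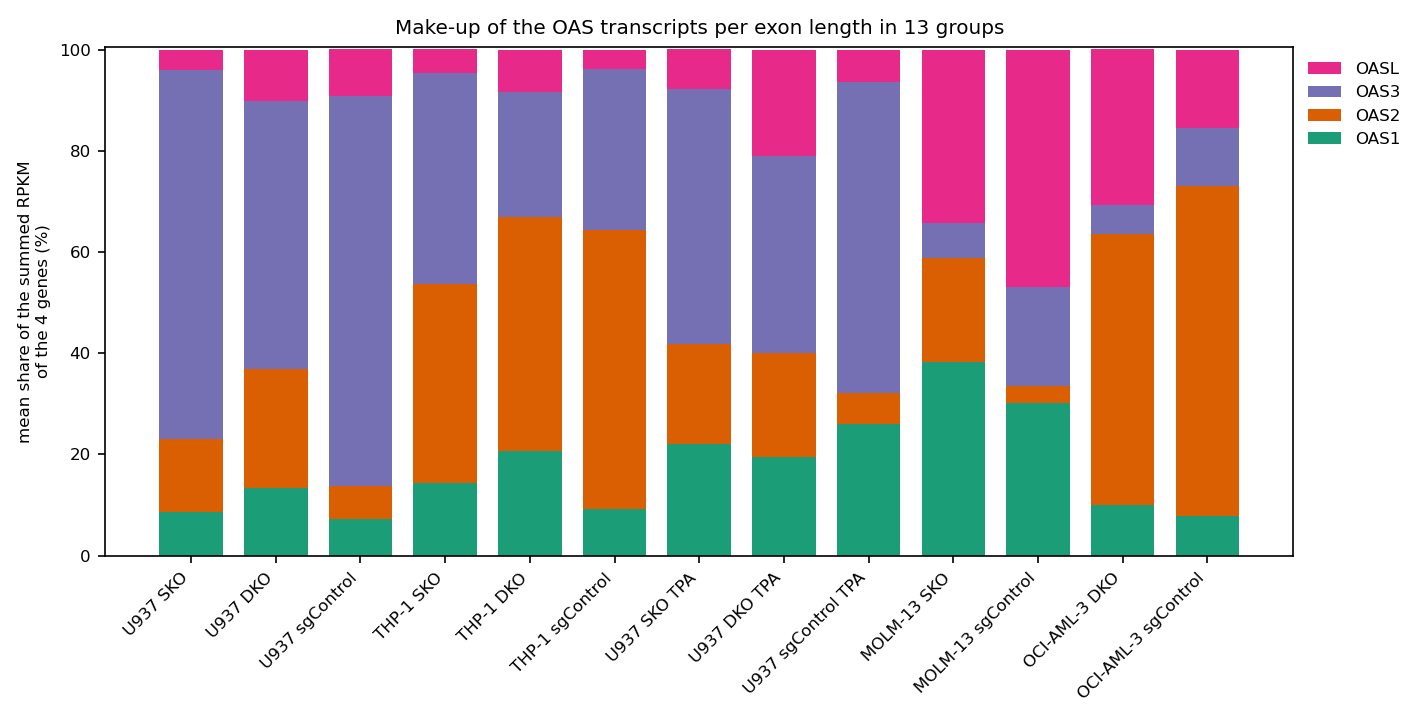
Stacked bars give each gene's mean share, in percent, of the summed RPKM of the 4 genes in each of 13 groups. OAS3 fills most of the bar in untreated U937 (53.0% to 77.1%), and OAS2 is the largest block in THP-1 sgControl (55.1%) and OCI-AML-3 sgControl (65.2%).

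In untreated U937, the synthetase genes rose in the libraries labelled SKO and all 4 genes rose in those labelled DKO. OAS3, the highest in CPM and RPKM, had 53.3, 53.8 and 52.3 CPM in SKO, 81.8, 84.2 and 80.7 in DKO, and 21.5, 22.7 and 23.5 in sgControl. OAS1 had 4.89, 4.99 and 3.83 CPM in SKO, 13.9, 16.5 and 14.4 in DKO, and 1.90, 1.42 and 1.29 in sgControl. OAS2 had 5.69, 7.59 and 6.39 CPM in SKO, 21.8, 23.7 and 22.8 in DKO, and 0.856, 1.32 and 1.37 in sgControl. For these 3 genes the groups did not overlap, and every DKO library was above every SKO library. OASL had 0.499, 1.44 and 1.16 CPM in SKO, 5.80, 5.68 and 4.89 in DKO, and 1.19, 0.496 and 1.14 in sgControl, so that its SKO and sgControl libraries overlapped and its DKO libraries stood apart.

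By edgeR's quasi-likelihood test with Benjamini-Hochberg adjustment over all 14915 genes tested, 3 of the 4 genes were higher in U937 SKO than in sgControl, where 30.7% of all tested genes were. The log2 fold changes were 1.24 ± 0.05 (SE) for OAS3, 1.57 ± 0.16 for OAS1 and 2.47 ± 0.15 for OAS2, with a largest adjusted p of 1.18e-09. OASL did not pass (0.13 ± 0.32, adjusted p = 0.752), and its sign turned without SKO replicate 2 (-0.22) or without sgControl replicate 2 (-0.19). In U937 DKO all 4 were higher, against 33.2% of tested genes, by 1.86 ± 0.05 for OAS3, 3.26 ± 0.15 for OAS1, 4.27 ± 0.14 for OAS2 and 2.54 ± 0.27 for OASL, with a largest adjusted p of 2.38e-09. Set directly against SKO, all 4 were again higher in DKO, against 24.1% of tested genes, and OASL had the largest difference (2.41 ± 0.27, adjusted p = 1.82e-08) and OAS3 the smallest (0.63 ± 0.05, adjusted p = 1.02e-11). The column names of the U937 DKO libraries lack a numeric code that those of SKO and sgControl share, so whatever the code stands for cannot be told apart from the label.

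THP-1 started from a much higher level and went the other way. OAS2 had 7.93, 9.17 and 7.81 CPM in the libraries labelled SKO, 20.1, 20.8 and 24.5 in DKO, and 128.8, 126.7 and 126.6 in sgControl. OAS3 had 13.34, 13.87 and 14.97 CPM in SKO, 19.48, 17.23 and 18.99 in DKO, and 119.5, 116.9 and 117.5 in sgControl. OAS1 had 3.39, 3.39 and 3.67 CPM in SKO, 11.2, 11.1 and 11.4 in DKO, and 25.9, 24.8 and 23.2 in sgControl. OASL followed at lower counts, with 0.267, 0.830 and 0.645 CPM in SKO, 2.42, 2.38 and 1.80 in DKO, and 5.67, 4.83 and 4.74 in sgControl. For each gene the SKO libraries were lowest, the DKO libraries stood between, and no groups overlapped.

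All 4 genes were lower in THP-1 SKO than in sgControl by the same test over 18585 genes, where 22.8% of tested genes were lower. The log2 fold changes were -3.93 ± 0.07 for OAS2, -3.06 ± 0.06 for OAS3, -2.81 ± 0.09 for OAS1 and -3.10 ± 0.26 for OASL, with a largest adjusted p of 1.76e-11. All 4 were also lower in THP-1 DKO than in sgControl, against 33.7% of tested genes, by -2.44 ± 0.07 for OAS2, -2.56 ± 0.06 for OAS3, -1.03 ± 0.09 for OAS1 and -1.10 ± 0.23 for OASL (largest adjusted p = 0.000101). Between the knockouts all 4 were higher in DKO than in SKO, against 25.3% of tested genes, from 0.50 ± 0.06 for OAS3 to 2.00 ± 0.27 for OASL (largest adjusted p = 1.99e-07). In both lines the DKO over SKO difference was smallest for OAS3 and largest for OASL. The column names of the THP-1 DKO libraries carry another such code than SKO and sgControl, which likewise cannot be told apart from the label.

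The opposite directions of the lines were tested as differences of effects in 1 fit of 18715 genes. The SKO effect was higher in U937 than in THP-1 for all 4 genes, against 24.1% of tested genes, and the differences ran from 3.24 ± 0.45 for OASL to 6.42 ± 0.16 for OAS2 on the log2 scale. For the DKO effect all 4 were again higher in U937, against 29.7% of tested genes, from 3.68 ± 0.39 for OASL to 6.76 ± 0.15 for OAS2 (largest adjusted p of the 8 tests 1.43e-07). Library names give different guides against SUV39H2 in U937 DKO and THP-1 DKO, and the codes described above differ too. In the DKO difference, guide, code and line therefore cannot be told apart. OASL reached the low-count minimum in 2 of the 3 THP-1 SKO libraries. After the changes, the untreated U937 DKO and THP-1 DKO libraries had overlapping levels of OAS2 (22.8 ± 0.95 and 21.8 ± 2.4 CPM, n = 3 each).

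**Figure D3:**
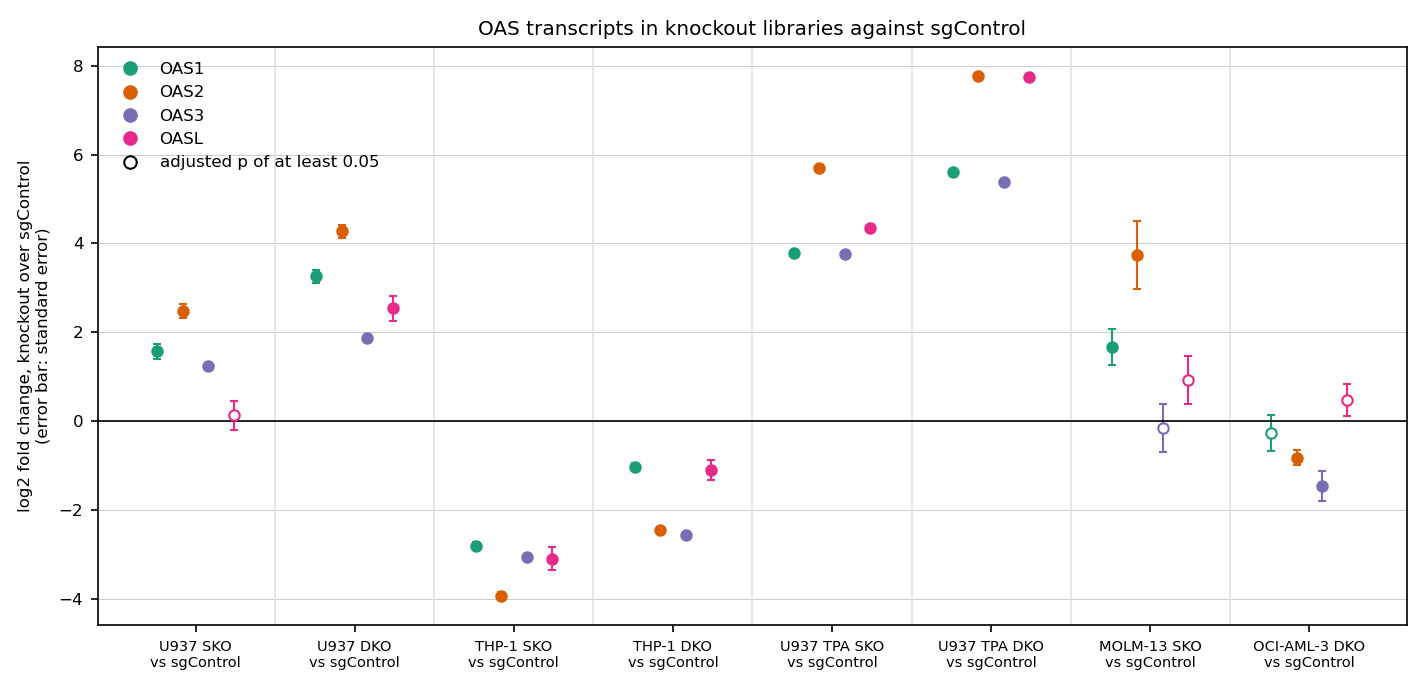
Points are log2 fold changes of knockout over sgControl with standard errors, for 4 genes in 8 comparisons, and open points did not pass an adjusted p of 0.05. All points lie above 0 in U937 with and without TPA and below 0 in THP-1, and those of OCI-AML-3 lie between -1.46 and 0.47.

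Under TPA the knockout differences in U937 were far larger. OAS3 had 513.9, 531.9 and 516.7 CPM in SKO, 1473, 1703 and 1644 in DKO, and 38.5, 39.8 and 37.7 in sgControl. OAS1 had 160.6, 169.2 and 165.3 CPM in SKO, 555.8, 587.6 and 601.9 in DKO, and 14.01, 11.64 and 10.03 in sgControl. OAS2 had 122.9, 129.1 and 127.8 CPM in SKO, 501.2, 545.4 and 542.4 in DKO, and 2.65, 2.91 and 1.75 in sgControl. For each of these genes every DKO library was above every SKO library, and every SKO library above every sgControl library. OASL had 29.6, 27.7 and 27.8 CPM in SKO, 296.7, 297.6 and 312.1 in DKO, and 1.47, 1.31 and 1.43 in sgControl, again with no overlap.

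All 4 genes were higher in U937 SKO than in sgControl under TPA, where 25.8% of 16246 tested genes were, with log2 fold changes of 3.76 ± 0.04 for OAS3, 3.79 ± 0.06 for OAS1, 5.69 ± 0.08 for OAS2 and 4.34 ± 0.08 for OASL. In DKO all 4 were higher, against 34.1% of tested genes, by 5.39 ± 0.05 for OAS3, 5.62 ± 0.06 for OAS1, 7.76 ± 0.07 for OAS2 and 7.76 ± 0.07 for OASL, the last pair being 216-fold differences. Against SKO all 4 were higher in DKO, against 31.3% of tested genes, by 1.63 ± 0.04 for OAS3, 1.82 ± 0.05 for OAS1, 2.07 ± 0.05 for OAS2 and 3.42 ± 0.04 for OASL. The largest adjusted p of these 12 tests was 6.57e-22. OASL again had the largest and OAS3 the smallest difference between DKO and SKO.

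The rise that goes with TPA depended on the guide. In U937 SKO all 4 genes were higher with TPA than without, against 31.5% of 16989 tested genes, by 3.32 ± 0.04 for OAS3 to 5.19 ± 0.08 for OAS1. In U937 DKO all 4 were higher, against 36.9% of tested genes, by 4.33 ± 0.04 for OAS3 to 5.83 ± 0.09 for OASL. In U937 sgControl all 4 were higher too, against 34.6% of tested genes, but OAS1 (2.95 ± 0.13, adjusted p = 2.43e-21) moved much more than OAS2 (1.08 ± 0.18), OAS3 (0.79 ± 0.05) and OASL (0.60 ± 0.24, adjusted p = 0.0236). The OASL call in sgControl did not pass with the replicate number as a block (0.65, adjusted p = 0.0557), without untreated sgControl replicate 2 (0.27, adjusted p = 0.298) or without sgControl TPA replicate 1 (0.57, adjusted p = 0.0611). TPA libraries and untreated libraries were deposited in separate count tables, so table and treatment cannot be told apart, and the levels set across them carry that limit.

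As differences of effects, the SKO effect was higher under TPA than without it for all 4 genes, against 19.6% of tested genes, by 2.24 ± 0.20 for OAS1, 2.53 ± 0.07 for OAS3, 3.23 ± 0.23 for OAS2 and 4.23 ± 0.32 for OASL. The DKO effect was higher under TPA for all 4, against 21.7% of tested genes, by 2.37 ± 0.19 for OAS1, 3.50 ± 0.23 for OAS2, 3.54 ± 0.07 for OAS3 and 5.23 ± 0.31 for OASL (largest adjusted p of the 8 tests 1.05e-11). Each such difference is within a table on both sides, so a shift of a whole table for a gene would cancel in it. Whatever the missing code or the clone number of untreated U937 DKO stands for need not cancel in the DKO difference. OASL, which did not pass in untreated SKO, was the gene with the largest difference for both the SKO and the DKO effect.

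**Figure D4:**
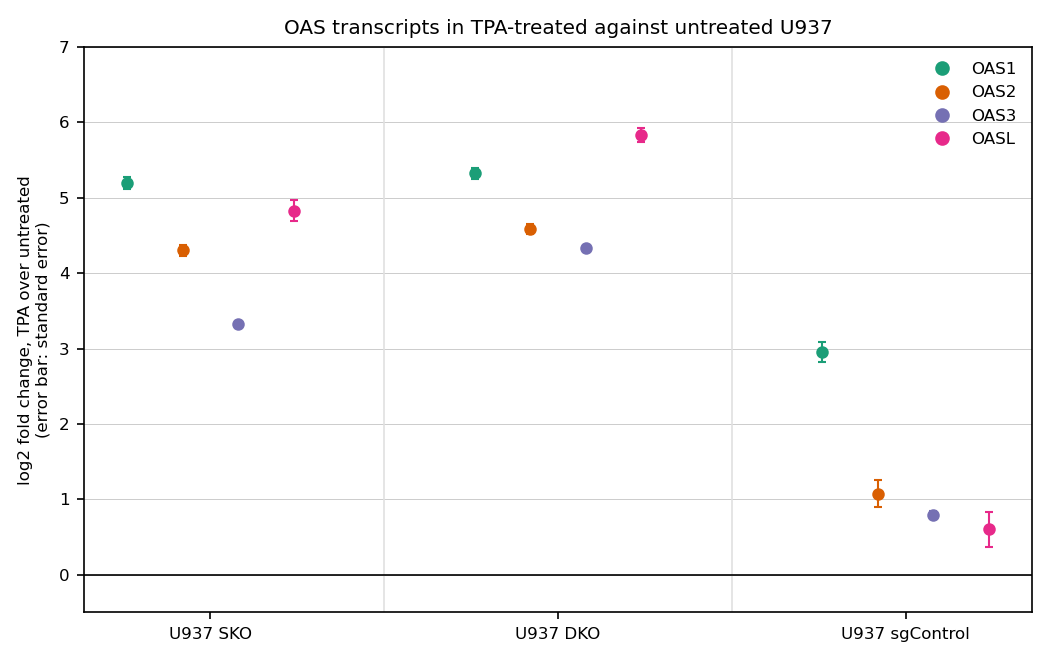
Points are log2 fold changes of TPA-treated over untreated U937 with standard errors for 4 genes, by guide. In sgControl OAS1 (2.95) stands above the other 3 genes (0.60 to 1.08), while in SKO and DKO all 4 lie between 3.32 and 5.83.

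MOLM-13 and OCI-AML-3 had few OAS reads. In MOLM-13, OAS1 had 45 and 58 reads (1.203 and 1.443 CPM) in SKO and 12 and 26 reads (0.303 and 0.523 CPM) in sgControl, and OAS2 had 24 and 24 reads in SKO and 0 and 4 reads in sgControl. A library with 0 reads of OAS2 allows up to 0.0757 CPM, taking 3 reads as the limit of counting error only. Reads of a pair appear to be counted singly, so this limit may be too low. Neither gene's groups overlapped. OAS3 (0.321 and 0.348 CPM in SKO, 0.303 and 0.442 in sgControl) and OASL (0.722 and 0.448 in SKO, 0.429 and 0.201 in sgControl) were low in all 4 libraries. For OAS3 the SKO values lay within the sgControl range, and for OASL the SKO values lay above it.

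In MOLM-13, 2 of the 4 genes were higher in SKO, against 31.8% of 15472 tested genes, namely OAS1 (1.66 ± 0.41, adjusted p = 0.000667) and OAS2 (3.73 ± 0.77, adjusted p = 8.6e-05), in the edgeR test. OAS2 passed the low-count filter only through SKO, where it is high, so it had to differ, and its value was 2.91 without sgControl replicate 1 and 7.60 without sgControl replicate 2. OAS3 (-0.16 ± 0.55, adjusted p = 0.823) and OASL (0.93 ± 0.54, adjusted p = 0.133) did not pass, and OASL passed when all groups of its table shared 1 fit (0.94, adjusted p = 0.0264). OASL reached the low-count minimum in 1 of 2 sgControl libraries, so it passed the filter of the MOLM-13 fit through SKO. OAS3 turned positive (0.14) without sgControl replicate 2.

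In OCI-AML-3, OAS2 had 3.40 and 2.63 CPM in DKO and 4.75 and 5.97 in sgControl, and OAS3 had 0.664 and 0.411 CPM in DKO and 1.41 and 1.57 in sgControl. DKO lay below sgControl for both, without overlap. OAS1 (0.726 and 0.575 CPM in DKO, 0.385 and 1.19 in sgControl) overlapped, and OASL (1.08 and 0.862 in DKO, 0.728 and 0.680 in sgControl) lay higher in DKO. In the test 2 of the 4 were lower in DKO, against 25.6% of 16175 tested genes, namely OAS2 (-0.82 ± 0.17, adjusted p = 6.07e-05) and OAS3 (-1.46 ± 0.34, adjusted p = 0.00029). OAS1 (-0.27 ± 0.42, adjusted p = 0.626) and OASL (0.47 ± 0.35, adjusted p = 0.279) did not pass. Without DKO replicate 2 neither OAS2 (-0.64, adjusted p = 0.113) nor OAS3 (-1.15, adjusted p = 0.0566) passed, and without DKO replicate 1 OAS2 did not (-1.03, adjusted p = 0.0508). OAS1 turned positive (0.76) without sgControl replicate 2.

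Ordered over the 13 groups, neighbours were often inseparable at the low end. From MOLM-13 sgControl (0.315 CPM) up to U937 sgControl under TPA (1.41 CPM), the 8 lowest groups of OASL each overlapped the next. For OAS1, the ranges of THP-1 DKO, U937 sgControl under TPA and untreated U937 DKO (11.2, 11.9 and 14.9 CPM) overlapped in turn. For OAS2, U937 SKO under TPA (126.6 ± 3.3 CPM) and THP-1 sgControl (127.4 ± 1.2 CPM) overlapped. OAS3 groups overlapped only among the 3 lowest groups, both of MOLM-13 and OCI-AML-3 DKO.

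Other interferon-stimulated genes were counted beside the family, from a list of 40 without its members. In U937 SKO 20 of 34 tested were higher and 4 lower (median log2 fold change 0.46, against -0.002 over all tested genes), led by HELZ2 (2.13 ± 0.10), a helicase co-activator gene, and RSAD2 (1.98 ± 0.25), which encodes the antiviral enzyme viperin. In U937 DKO 29 were higher and 3 lower (median 1.12, all genes -0.006), and in THP-1 SKO and DKO 39 and 36 of 40 were lower, with 0 and 2 higher (medians -1.43 and -1.02, all genes 0.015 and 0.05). IFIT1, whose product binds foreign RNA ends, was among the most changed in each of these THP-1 comparisons (-6.356 ± 0.25 in SKO and -2.998 ± 0.19 in DKO). Under TPA 36 of 38 were higher in U937 SKO and 38 of 38 in DKO, with 0 lower (medians 2.27 and 4.20, all genes -0.005 and -0.048). In MOLM-13 SKO 25 of 34 were higher and 4 lower (median 0.56, all genes 0.023), and in OCI-AML-3 DKO 9 of 36 were higher and 10 lower (median -0.07, all genes 0.016).

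**Figure D5:**
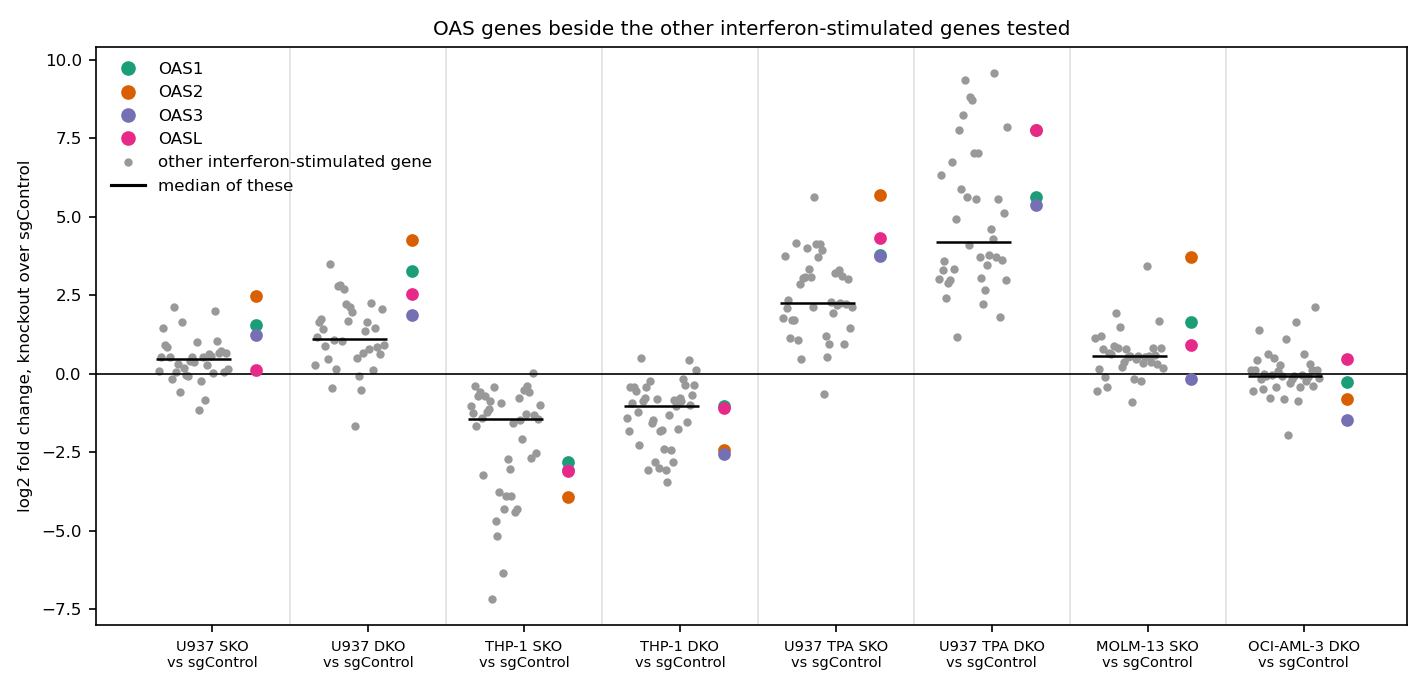
Grey points are log2 fold changes of knockout over sgControl for each tested gene of the list of other interferon-stimulated genes, the black line is their median, and coloured points are the 4 OAS genes. OAS2 lies above every listed gene in untreated U937 SKO (2.47) and DKO (4.27), and in THP-1 all OAS points lie below 0 with most of the list.

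Genes that act upstream of the family were counted in the same way, and the medians over all tested genes are those just given. Of all tested genes, 30.7% were higher and 31.2% lower in U937 SKO, 33.2% and 34.5% in U937 DKO, 20.6% and 22.8% in THP-1 SKO and 31.9% and 33.7% in THP-1 DKO. The shares were 25.8% and 24.6% in U937 SKO under TPA, 34.1% and 36.5% in U937 DKO under TPA, 31.8% and 32.2% in MOLM-13 SKO and 24.3% and 25.6% in OCI-AML-3 DKO. Of 15 tested interferon signalling genes, 9 were higher and 0 lower in U937 SKO (median 0.39), 10 and 0 in U937 DKO (0.56), 2 and 6 in THP-1 SKO (-0.24) and 6 and 5 in THP-1 DKO (0.008). Under TPA 8 were higher and 0 lower in U937 SKO (0.16) and 13 and 0 in U937 DKO (1.26). In MOLM-13 SKO 15 of 16 were higher and 1 lower (0.63), and in OCI-AML-3 DKO 4 of 15 were higher and 3 lower (0.003). IRF7, a transcription factor that amplifies interferon production, changed by 1.80 ± 0.13 in U937 SKO, 3.24 ± 0.12 in U937 DKO, -2.50 ± 0.10 in THP-1 SKO, -1.37 ± 0.10 in THP-1 DKO and 4.84 ± 0.07 in U937 DKO under TPA. STAT2, a transcription factor of interferon signalling, changed by 1.59 ± 0.07 in U937 SKO, 1.59 ± 0.07 in U937 DKO and 3.97 ± 0.05 in U937 DKO under TPA. In THP-1 it was lower in SKO (-0.54 ± 0.05) and higher in DKO (0.44 ± 0.05), where it had 88.9 ± 5.5 CPM against 70.6 ± 2.3 in sgControl (SD, n = 3 each) while the 4 OAS genes were lower. IRF9, a transcription factor that pairs with STAT2, was also higher in THP-1 DKO (1.62 ± 0.39). Among sensors of double-stranded RNA, 4 of 10 were higher and 4 lower in U937 SKO (median -0.03), 7 and 2 in U937 DKO (0.53), 0 and 6 of 11 in THP-1 SKO (-0.45) and 2 and 6 of 11 in THP-1 DKO (-0.30). Under TPA 10 of 11 were higher and 1 lower in U937 SKO (1.42) and 9 and 2 in U937 DKO (2.89), where IFIH1, the gene of the sensor MDA5, rose by 4.09 ± 0.04. In MOLM-13 SKO 5 of 10 were higher and 4 lower (0.17), and in OCI-AML-3 DKO 3 and 4 of 10 (-0.03). IFIH1 and EIF2AK2 are in this list and in that of interferon-stimulated genes.

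Interferon transcripts were close to 0 outside 1 group. Of 9 interferon genes none passed the low-count filter in the fits without TPA libraries, and IFNB1, IFNL1 and IFNA2 passed in those with them, through U937 DKO under TPA. There IFNB1, the type I interferon gene, had 2.80 ± 0.43 CPM (281 reads over 3 libraries), against 0.098 ± 0.13 in SKO (12 reads) and 0 reads in sgControl under TPA. IFNL1, a type III interferon gene, had 277, 4 and 0 reads, and IFNA2 114, 0 and 0 reads, in DKO, SKO and sgControl under TPA.

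Of 4 genes that degrade the oligoadenylates or restrain their pathway, 3 were tested in U937, and 0 were higher and 2 lower in SKO, in DKO and in DKO under TPA, and 0 and 1 in SKO under TPA. In THP-1 1 of 3 was higher and 0 lower in SKO, and 0 were higher and 2 lower in DKO. Both genes tested in MOLM-13 were lower in SKO, and 2 of 3 were lower in OCI-AML-3 DKO, with 0 higher. The shares of all tested genes are those above. ABCE1, a ribosome-recycling ATPase also described as an inhibitor of this pathway, was lower in U937 SKO (-0.68 ± 0.04), U937 DKO (-0.48 ± 0.04) and U937 DKO under TPA (-1.49 ± 0.05), and also in THP-1 DKO (-0.43 ± 0.04), MOLM-13 SKO (-0.60 ± 0.03) and OCI-AML-3 DKO (-0.31 ± 0.06). PDE12, a phosphodiesterase that degrades 2'-5'-linked oligoadenylates, did not pass in U937 SKO (-0.07 ± 0.05, adjusted p = 0.177) and was lower in THP-1 DKO (-0.49 ± 0.06) and MOLM-13 SKO (-0.38 ± 0.05). AKAP7, known in the mouse as a phosphodiesterase of these oligoadenylates, was the gene that rose in THP-1 SKO (0.96 ± 0.08). AKAP7 was lower in U937 SKO (-2.75 ± 0.37), U937 DKO (-2.30 ± 0.35), U937 DKO under TPA (-2.45 ± 0.90) and OCI-AML-3 DKO (-0.70 ± 0.10). Its reads in untreated U937 were few, at 46 in SKO, 62 in DKO and 340 in sgControl, summed over libraries. Under TPA there were 6 in U937 DKO and 42 in U937 sgControl. Genes within 500 kb of the OAS1, OAS3 and OAS2 locus were counted beside the same shares. Of 10 tested, 3 were higher and 5 lower in U937 SKO (median -0.09) and in U937 DKO (-0.27), and 1 was higher and 6 lower in THP-1 SKO (-0.40) and 1 and 7 in THP-1 DKO (-0.55). Under TPA 5 of 11 were higher and 3 lower in U937 SKO (0.09) and 5 and 6 in U937 DKO (-0.36). In MOLM-13 SKO 5 of 9 were higher and 3 lower (0.08), and in OCI-AML-3 DKO 4 and 3 of 11 (0.14). As a difference of effects, the DKO effect was higher in U937 than in THP-1 for 9 of 10 of these neighbours and lower for 1 (median 0.59), where 29.7% of all tested genes were higher and 24.7% lower. Near OASL, 5 of 17 were higher and 9 lower in U937 DKO under TPA (median -0.37), 4 and 10 in U937 DKO (-0.21), 3 and 3 in THP-1 SKO (-0.02) and 3 and 8 in THP-1 DKO (-0.18).

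Likeness of pattern was measured as Pearson's r over the 13 group means of log2 CPM, among the 10910 genes whose mean log2 CPM was 1 or more, as a description without a test. The groups share their line and count table, and 13 points leave r imprecise. Among the genes most like OASL were the interferon-stimulated genes IFIT1 (0.98), SP110 (0.97), IFIT3 (0.97) and IFIT2 (0.96). OAS1 was most like IFI6 (0.98) and DDX60 (0.98), interferon-stimulated genes, and then NOTCH2, BMPR2 and SLC38A6 (0.96 each). OAS2 was most like SGTB (0.95), SMAD7 (0.94), DDX60 (0.93), BATF2 (0.93) and ZNF710 (0.92). OAS3 was most like PALLD (0.97), CEP170 (0.96), ARHGAP31 (0.95), GFPT1 (0.95) and NRP2 (0.95). Between members r ran from 0.83 for OAS3 with OASL to 0.93 for OAS1 with OASL.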

How the data were processed

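Libraries were prepared from poly(A) RNA with a kit that keeps strand, per the labels' protocols. The submitters' processing notes name fastp 0.23.4, STAR 2.7.11b, Subread 2.0.6 and the hg38 build. What the authors deposited are raw whole-number counts for each gene. For untreated U937 and THP-1 these came, per the file headers, from featureCounts with GENCODE 38, ignoring strand and taking each read of a pair singly, without reads that map or overlap more than once. The other table carries no command. Because a pair usually adds 2, 74.3% of 140 counts of the 4 genes were even, so low counts hold fewer fragments than reads.

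Tests used edgeR 4.0.16 in R 4.3.3 (default expression filter, TMM scaling, quasi-likelihood test, Benjamini-Hochberg adjustment over all tested genes, threshold 0.05), in 1 fit for each line and treatment, and in fits of 18 libraries for TPA effects and differences of effects. The scripts were tested on simulated data. Residual degrees of freedom were 6 with 9 libraries, 2 with 4 and 12 with 18. No 2 replicates agreed within the sampling noise of independent reads, with a chi-square per gene of 2.97 to 11.68. Counting the reads of a pair singly raises this value, so part of it need not be spread between libraries. The members and lists were chosen with earlier results of these data known. Named beyond the members were SUV39H1 and SUV39H2, up to 4 genes per list and comparison with the largest called change, neighbours within 500 kb and the 5 most alike genes per member; PDE12, IFNL1 and IFNA2 levels and IRF7 across comparisons were added as context. Some genes that the rule or lists hold are not reported here. DESeq2 1.42.0, other scaling, no filter, a replicate block, other sets of libraries, each library left out, and a term for a code in 3 untreated U937 library names, added after the names were seen, were alternatives.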

Additional observations from a re-analysis of the deposited data

Results flagged for a closer look

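Differences of knockout effects between settings passed the test for each of the 4 genes, in 16 of 16 tests by edgeR's quasi-likelihood test, and each is given here on the log2 scale. Of all tested genes, 37.7%, 49.6%, 46.9% and 54.4% passed in either direction in these comparisons, in the order given below. The SKO effect under TPA minus that without TPA in U937 was 2.24 for OAS1, 3.23 for OAS2, 2.53 for OAS3 and 4.23 for OASL. The DKO effect under TPA minus that without TPA was 2.37 for OAS1, 3.50 for OAS2, 3.54 for OAS3 and 5.23 for OASL. The SKO effect in U937 minus that in THP-1 was 4.39 for OAS1, 6.42 for OAS2, 4.31 for OAS3 and 3.24 for OASL. The DKO effect in U937 minus that in THP-1 was 4.34 for OAS1, 6.76 for OAS2, 4.47 for OAS3 and 3.68 for OASL. The limits given above for the DKO differences hold here too. The effects in U937 and THP-1 had opposite signs for every gene and knockout, though that of SKO on OASL in U937 did not pass the test on its own. No group of 4 or more libraries exists, so outlying libraries were not sought.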

How the results depend on the processing

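Of 72 log2 fold changes of the 4 genes, 67 passed the threshold in either direction. Of all tested genes, 37.7% to 73.1% did so, depending on the comparison. On recomputing, 881 of 892 values of the 4 genes kept direction and side of the threshold. With all groups of the table in 1 fit, OASL in MOLM-13 SKO passed (0.94, adjusted p = 0.0264). With the replicate number as a block, OASL under TPA in sgControl did not pass (0.65, adjusted p = 0.0557), and 71 of 72 calls were as without it. Same-numbered libraries deviated together with correlations of only -0.038 to 0.058, so the numbers do not pair them. Leaving out 1 library gave ranges of -0.22 to 0.48 for OASL in U937 SKO, -0.39 to 0.14 for OAS3 in MOLM-13 SKO, -0.87 to 0.76 for OAS1, -1.03 to -0.64 for OAS2 and -1.85 to -1.15 for OAS3 in OCI-AML-3 DKO, and 0.27 to 0.84 for OASL under TPA in sgControl. The count of genes past the threshold in OCI-AML-3 was 8065, and 5020 to 6214 with 1 library left out, where the lone library of a group is assumed to vary like the others and the fit has fewer samples. The term for a library code changed no call in untreated U937. Of 52 group levels, 9 moved by more than 1 SD with DESeq2's size factors (ratios 0.95 to 1.09) and 17 without TMM (0.90 to 1.13). Low counts limit the values of MOLM-13 and OCI-AML-3, at 0 to 281 reads per gene and library, and those of OASL in untreated U937 SKO and sgControl (20 to 54 reads) and THP-1 SKO (14 to 48). The sgControl baselines of U937 were also low for OAS1 (45 to 80 reads) and OAS2 (36 to 56) without TPA. Under TPA they were low for OAS2 (66 to 124 reads) and OASL (54 to 61).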
